A study of Mus musculus with 16 samples.

Results

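Glucocorticoid-induced genes are transcribed at a higher rate once glucocorticoid hormones have entered the cell, and 9 of them were followed through the somatosensory cortex of mice after sleep deprivation (SD): Fkbp5, Tsc22d3, Zbtb16, Hif3a, Sgk1, Errfi1, Plin4, Sult1a1 and Cdkn1a. They were chosen by symbol from the 24421 genes of the deposited tables, as widely used readouts of the hormone, with earlier results of these data known. Each of the 9 was found once in every table. Total RNA was sequenced from 12 libraries, 3 for each of 4 groups. CTL-WT were undisturbed C57BL/6 mice, SD-WT were C57BL/6 mice kept awake for 8 h by gentle handling from ZT20 until collection at ZT4, CTL-AcPbKO were undisturbed AcPb-/- mice and SD-AcPbKO were AcPb-/- mice given the same SD. ZT0 is lights on, and the undisturbed mice were also collected at ZT4. All animals are labelled as male and aged 2 to 3 months. AcPb is the neuronal isoform of the interleukin-1 receptor accessory protein, encoded by Il1rap, and the AcPb-/- animals were homozygotic offspring of a line bred for several generations at the same site. Controls were left undisturbed, so the hours awake and the handling itself cannot be told apart.

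Glucocorticoids (corticosterone in mice) are released from the adrenal cortex under a daily rhythm and in response to stressors. Inside the cell they bind the glucocorticoid receptor, Nr3c1, which is held ready by the HSP90 chaperone machinery, moves to the nucleus and binds glucocorticoid response elements, DNA sites made of a pair of inverted copies of a short sequence. In brain, neurons, astrocytes, oligodendrocytes and endothelial cells all carry the receptor, and the mineralocorticoid receptor, Nr3c2, binds the same hormone. Corticosterone itself was not among the data analysed here.

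The values are normalized read counts, that is reads counted on a gene divided by the size factor of the library, and differences are given on the scale log2(normalized count + 1) with the limma fit across all genes and Benjamini-Hochberg adjusted p-values, with a threshold of 0.05. Depth was 26.5 to 41.6 M reads on genes in the 6 control libraries and 58.8 to 71.9 M in the 6 SD libraries, so depth moved with SD. When the reads of each library were thinned to the total of the shallowest, the number of the 9 genes past the threshold stayed as it was in each comparison. Against the label of male mice, 4 of the 6 control libraries (replicates 2 and 3 of CTL-WT, 4 and 5 of CTL-AcPbKO) held 25352 to 39358 reads of Xist, the RNA of an inactive X chromosome, with 0 to 2 reads on 4 Y-linked genes. The 2 other controls and all 6 SD libraries held 5 to 13 Xist reads. Choroid plexus markers summed to 18050 normalized counts in SD-AcPbKO replicate 4 and to 303.7 to 593.6 in the other 11 libraries. Il1rap was read in all libraries, at 1476 to 1520 normalized counts in CTL-WT and 1515 to 1647 in CTL-AcPbKO, and a count over the whole gene does not check an isoform. By the labels each library is a different mouse, and p-values measure the spread between these libraries.

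After SD, 8 of the 9 genes rose in WT mice and all 9 rose in AcPb-/- mice. In WT mice 25.4% of 20417 genes passed (5186), 13.2% of the 20417 being higher after SD and 12.2% lower. For AcPb-/- mice the share was 27.4% of 20574 genes, 14.1% of the 20574 being higher and 13.3% lower. The median difference of the 9 genes was 1.24 in WT and 1.18 in AcPb-/- mice, beside medians of -0.0039 and 0.014 over all genes tested. The highest control lay below the lowest SD library for 8 of 9 genes in WT, against 20.5% of all genes with that separation in that direction, and for 9 of 9 in AcPb-/- mice, against 21.7%. The 9 genes were chosen with earlier results of these data known. The shares and medians of all genes set beside them thus describe the list and do not test it. The gene that did not pass in WT was Sgk1. In whole cortex tissue, more cells of a type and more RNA per cell cannot be told apart.

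**Figure D1:**
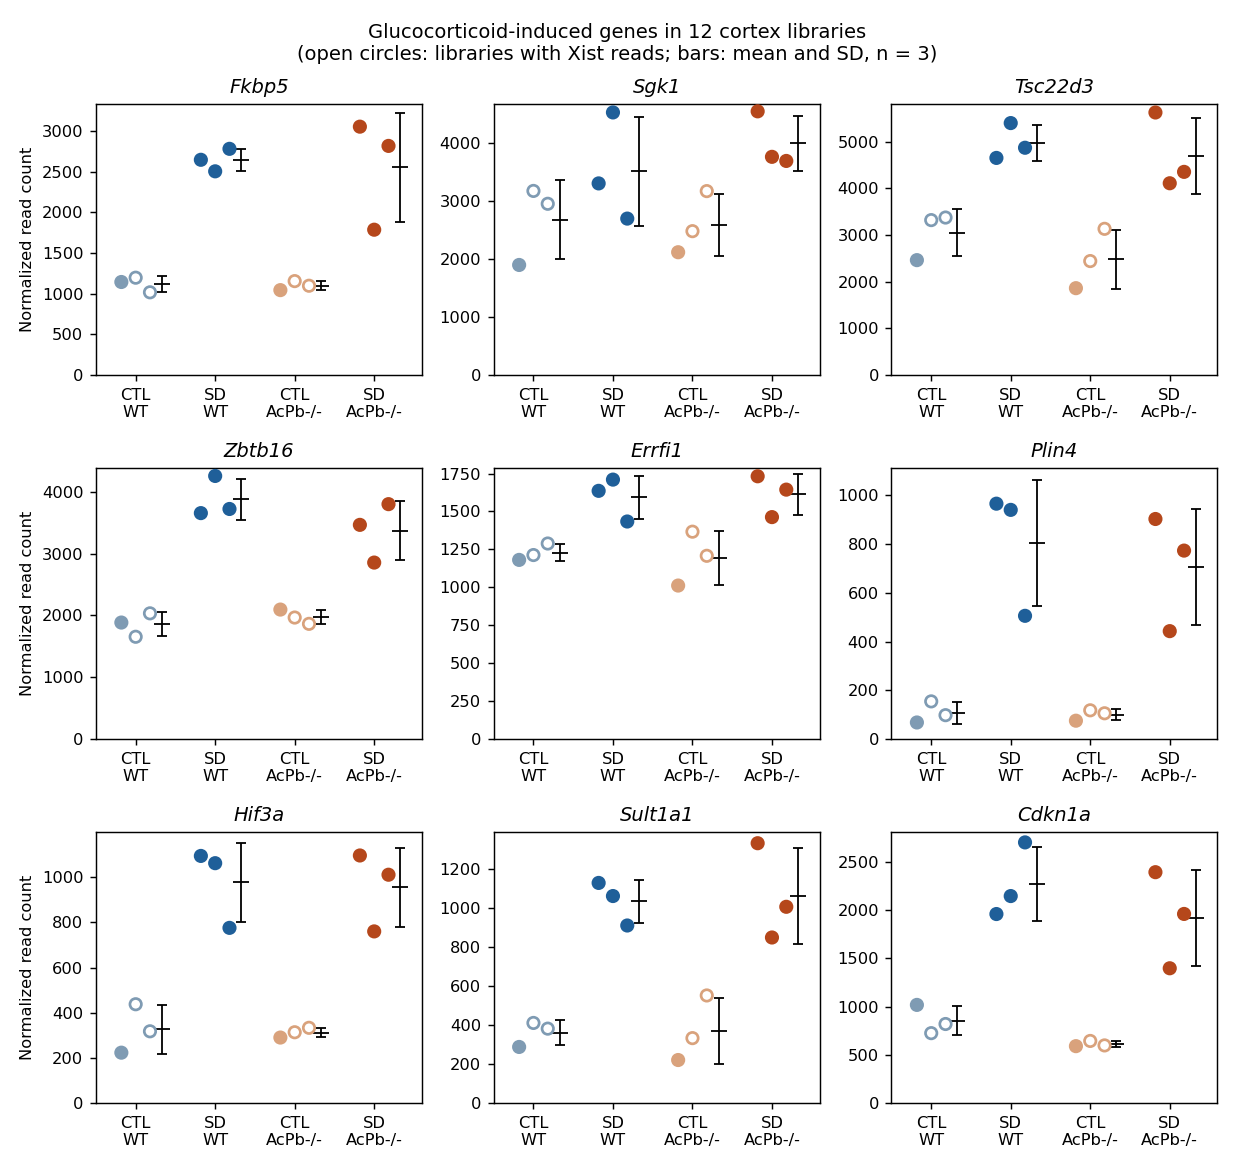
Normalized read count (vertical axis, linear from 0, all 12 libraries scaled together) of each of the 9 genes by group, with 1 point per library and the mean and SD of 3 libraries beside them. Open circles are the 4 control libraries with Xist reads. SD points lie above the control points in both genotypes for all genes except Sgk1 in WT mice.

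Fkbp5 encodes an HSP90 co-chaperone that lowers the affinity of the glucocorticoid receptor for its hormone, and so forms a feedback loop inside the cell. It lies on chromosome 17, from 28399094 to 28517527 on the minus strand (GENCODE M21, GRCm38, as all gene positions here). In the 3 CTL-WT libraries Fkbp5 had 1179, 1232 and 1049 normalized counts, and in the 3 SD-WT libraries 2725, 2586 and 2865. The groups were far apart relative to the spread within them, with a difference of 1.24 (SE 0.076, adjusted p = 6.65e-05), a 2.37-fold change. Among AcPb-/- mice the controls had 1012, 1121 and 1066 normalized counts and the SD libraries 2976, 1736 and 2742. SD-AcPbKO replicate 3 was the lowest of the SD libraries, and the difference was 1.18 (SE 0.18, adjusted p = 0.0022).

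Tsc22d3 encodes GILZ, a leucine zipper protein that restrains NF-kappa-B and AP-1 and mediates part of the anti-inflammatory action of glucocorticoids. It is the only one of the 9 genes on chromosome X (140539528 to 140600659, minus strand). Its normalized counts were 2533, 3415 and 3480 in CTL-WT and 4784, 5568 and 5010 in SD-WT. In CTL-AcPbKO they were 1803, 2369 and 3039, and in SD-AcPbKO 5477, 3989 and 4232. Every SD library lay above every control of its genotype. The difference was 0.72 in WT (SE 0.11, adjusted p = 0.00199) and 0.94 in AcPb-/- mice (SE 0.18, adjusted p = 0.00652). In both genotypes the lowest control was the library without Xist reads.

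Zbtb16 encodes PLZF, a zinc finger transcription factor that mostly represses its targets (chromosome 9, 48654297 to 48836222, minus strand). CTL-WT held 1942, 1704 and 2099 normalized counts and SD-WT 3761, 4390 and 3831. CTL-AcPbKO held 2034, 1910 and 1810, and SD-AcPbKO 3375, 2773 and 3696. The controls of both genotypes were close together, and all 6 SD libraries lay above all 6 controls. The difference was 1.06 in WT (SE 0.088, adjusted p = 0.00015) and 0.77 in AcPb-/- mice (SE 0.10, adjusted p = 0.0015).

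Hif3a encodes an alpha subunit of the hypoxia-inducible factors, some isoforms of which dampen the response to low oxygen (chromosome 7, 17031507 to 17062427, minus strand). From 230.8, 450.7 and 328.6 normalized counts in CTL-WT it rose to 1125, 1095 and 797.7 in SD-WT. AcPb-/- mice went from 282.2, 305.2 and 324.1 to 1066, 737.8 and 982.4. The rise was 3.06-fold in WT and 3.02-fold in AcPb-/- mice. On the log2 scale the difference was 1.61 (SE 0.21, adjusted p = 0.000904) and 1.59 (SE 0.14, adjusted p = 0.000531).

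Sgk1 encodes the serum- and glucocorticoid-regulated kinase, which acts on ion channels and transporters (chromosome 10, 21882184 to 21999903, plus strand). Its normalized counts were 1956, 3270 and 3049 in CTL-WT and 3403, 4676 and 2778 in SD-WT. SD-WT replicate 4 lay below 2 of the 3 controls, so the groups overlapped. The difference of 0.39 (SE 0.21, 95% interval -0.062 to 0.85) did not pass the threshold (adjusted p = 0.192), and the interval holds values from no change to a rise of 0.85. Its size rested on single libraries, being 0.16 without CTL-WT replicate 1 and 0.19 without SD-WT replicate 2, and 0.16 to 0.57 with each library left out. For AcPb-/- mice the counts were 2055, 2411 and 3082 in controls and 4433, 3659 and 3594 after SD. These groups did not overlap, and the difference was 0.64 (SE 0.14, 95% interval 0.32 to 0.97, adjusted p = 0.0112). Without SD-AcPbKO replicate 2, the highest library, the adjusted p was 0.0608.

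Sgk1 was also the only one of the genes whose promoter windows held the full glucocorticoid response element searched, and its sequence is shown for that reason. Windows of 300 bases, 250 before to 50 after each annotated start, were taken from RefSeq (GRCm38.p6) for 8 of the 9 genes (17 windows), with no entry for Zbtb16. The element searched was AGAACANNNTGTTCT, that is AGAACA and its inverted copy 3 bases apart, which reads the same on both strands, and its core ACANNNTGT. The full element was found in 3 of the 32851 windows of all genes (0.00913%), 1 of them from Sgk1, with its centre 182 bases before the start at chr10:21993640-21993939 on the plus strand. The core was found in 6.85% of all windows, and among the 9 genes only in that window and in a further window of Sgk1 at chr10:21978422-21978721, where it was centred 123 bases before the start and differed from the full element at 5 of its 12 fixed letters. The 2 windows of Sgk1 carry in capitals the element and the 15 bases around the core. The window of Plin4 at chr17:56109733-56110032 on the minus strand belongs to the gene with the largest rise, held no core and is printed for contrast.
Sgk1, window with the full element: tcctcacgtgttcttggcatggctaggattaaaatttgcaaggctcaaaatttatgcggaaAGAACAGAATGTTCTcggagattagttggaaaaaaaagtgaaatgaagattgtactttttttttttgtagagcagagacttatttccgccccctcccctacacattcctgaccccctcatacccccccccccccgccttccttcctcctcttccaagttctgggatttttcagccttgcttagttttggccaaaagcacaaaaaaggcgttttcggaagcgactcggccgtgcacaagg
Sgk1, window with the core: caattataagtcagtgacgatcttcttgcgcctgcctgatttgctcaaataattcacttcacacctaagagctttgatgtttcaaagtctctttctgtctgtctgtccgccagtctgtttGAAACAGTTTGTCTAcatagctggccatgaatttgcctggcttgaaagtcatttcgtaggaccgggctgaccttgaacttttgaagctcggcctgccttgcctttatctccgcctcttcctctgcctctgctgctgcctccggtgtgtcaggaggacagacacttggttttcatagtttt
Plin4, window with no core: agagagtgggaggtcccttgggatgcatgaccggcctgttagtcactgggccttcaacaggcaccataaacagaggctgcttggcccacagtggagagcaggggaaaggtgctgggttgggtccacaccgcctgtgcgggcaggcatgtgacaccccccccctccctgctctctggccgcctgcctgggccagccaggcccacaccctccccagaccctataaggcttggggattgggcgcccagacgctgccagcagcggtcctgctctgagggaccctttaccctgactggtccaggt

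The element is thus present before 1 of 6 annotated starts of Sgk1, the gene of the 9 whose rise in WT mice did not pass the test. The other 7 genes with windows held no core there, among them Fkbp5, Hif3a and Plin4. The 26 other glucocorticoid-induced genes listed had 27 windows, from 22 genes. The core with at most 2 mismatches in the 12 fixed letters was found in 2 of these windows, both of Fam107a, against 0.417% of all windows. Mismatches were scored only where the core matched in full, so elements with a mismatch inside the core were not counted. A match is a description of the letters and not of binding, and the windows leave out introns and distal sites.

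Errfi1 encodes MIG6, a feedback inhibitor of the EGF receptor family (chromosome 4, 150853919 to 150868892, plus strand). It moved least among the genes that rose in WT mice, from 1216, 1248 and 1329 normalized counts in CTL-WT to 1683, 1764 and 1476 in SD-WT. AcPb-/- mice went from 982, 1327 and 1173 to 1687, 1421 and 1599. The groups did not overlap in either genotype, although the lowest SD-AcPbKO library (1421) lay close to the highest control (1327). The difference was 0.37 in WT (SE 0.079, adjusted p = 0.00776) and 0.44 in AcPb-/- mice (SE 0.11, adjusted p = 0.0211). In AcPb-/- mice the adjusted p was 0.0956 without SD replicate 2 and 0.0699 without SD replicate 4, the library with the high choroid plexus sum.

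Plin4 encodes a perilipin that coats lipid droplets (chromosome 17, 56100591 to 56109803, minus strand), and had the largest difference of the 9 genes in both genotypes. Its normalized counts were 70.4, 159.4 and 101.5 in CTL-WT and 993.5, 969.7 and 520.4 in SD-WT. They were 73.4, 114.9 and 103 in CTL-AcPbKO and 879.1, 430.2 and 752 in SD-AcPbKO. The lowest SD library of either genotype thus stood well above the highest control, while the SD libraries within a genotype differed by up to 2.04-fold. The difference was 2.92 in WT (SE 0.30, adjusted p = 0.000293), a 7.54-fold change, and 2.77 in AcPb-/- mice (SE 0.27, adjusted p = 0.00061), a 6.83-fold change. Ranked from the largest rise down, with genes that fell not counted ahead of it, Plin4 stood in place 7 of the 20417 genes tested in WT mice and in place 11 of 20574 in AcPb-/- mice. Exons of Plin4 overlap Hdgfl2 on the other strand, and whether the counting used the strand is not given in the sources used here.

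Sult1a1 encodes a phenol sulfotransferase, which adds sulfate to phenols and catechols (chromosome 7, 126672865 to 126676432, minus strand). In CTL-WT it had 297.2, 423.2 and 394.3 normalized counts, and in SD-WT 1160, 1093 and 935.7. In CTL-AcPbKO it had 215.1, 324 and 535.6, the widest spread of any of the 9 genes within a group (CV 45.5%), and in SD-AcPbKO 1294, 823.6 and 976.9. No SD library reached down to the controls. The difference was 1.52 in WT (SE 0.13, adjusted p = 0.000178) and 1.60 in AcPb-/- mice (SE 0.30, adjusted p = 0.00549). Sult1a1 overlaps Sgf29 on the other strand, and 1.8% of the stretches of 100 bases in its exons were shared with another gene.

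Cdkn1a encodes p21, an inhibitor of cyclin-dependent kinases that p53 also induces (chromosome 17, 29090976 to 29100727, plus strand). CTL-WT held 1049, 747.9 and 847.4 normalized counts and SD-WT 2015, 2212 and 2778. CTL-AcPbKO held 574.5, 627.5 and 582.2, and SD-AcPbKO 2329, 1358 and 1906. All SD libraries lay above all controls. The difference was 1.41 in WT (SE 0.14, adjusted p = 0.000258) and 1.61 in AcPb-/- mice (SE 0.17, adjusted p = 0.000727). Of the stretches of 100 bases in its exons 5.3% were shared with other genes, and an unnamed transcript, AC167363.2, overlaps it on the other strand.

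The genotypes were then compared, to ask whether loss of AcPb changed the level of these genes or their response to SD. The test of the difference between the SD effects, an interaction in 1 fit of all 12 libraries, found 0 of 20978 genes past the threshold with limma (839 at an unadjusted p under 0.05), 1 with DESeq2 and 0 with edgeR, and none of the 9 genes was among those called. Zbtb16 had the smallest p of the 9. Its SD effect was lower in AcPb-/- mice by a log2 difference of -0.30 (95% interval -0.62 to 0.020; limma, adjusted p = 0.986). For Fkbp5 the difference between the SD effects was -0.063 (95% interval -0.52 to 0.40), and for Hif3a -0.021 (95% interval -0.67 to 0.62). Plin4 had the widest interval, from -1.17 to 0.88 around -0.15, and Errfi1 one of the narrowest, from -0.25 to 0.38 around 0.066. The values for Sgk1 were 0.25 (-0.40 to 0.90), for Tsc22d3 0.22 (-0.31 to 0.76), for Sult1a1 0.070 (-0.74 to 0.88) and for Cdkn1a 0.20 (-0.33 to 0.74). For 7 of the 9 genes the interval reaches a 1.5-fold difference between the genotypes in the response to SD, so a difference of that size lies within these intervals. For Fkbp5 and Errfi1 it lies outside the intervals of this fit, which takes controls with and without Xist reads together. Each interval is for 1 gene, without adjustment for the 9 read side by side.

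**Figure D2:**
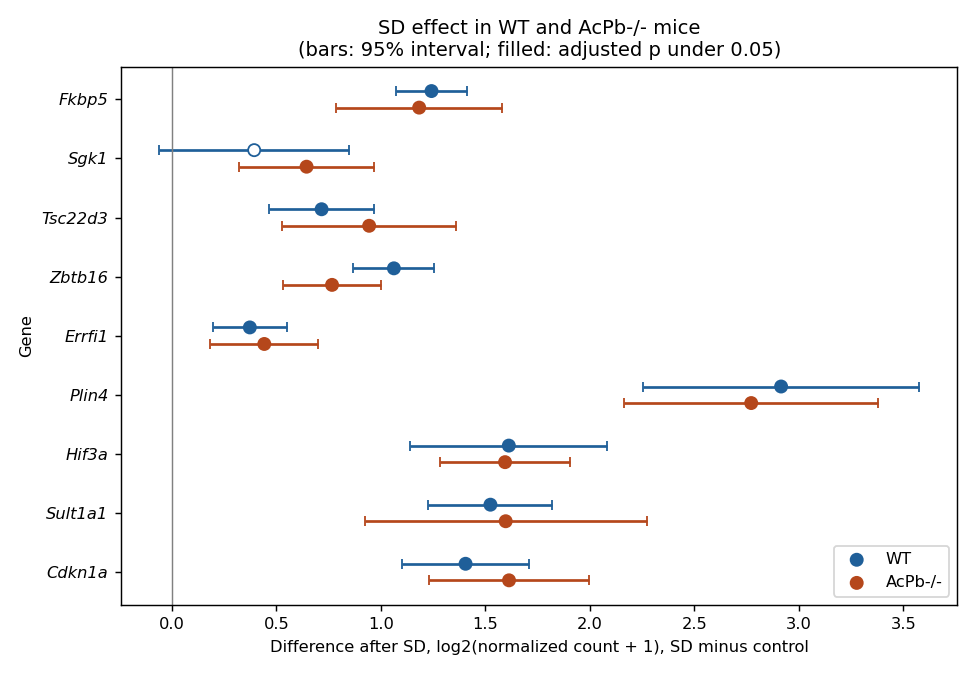
Difference after SD on the scale log2(normalized count + 1) (horizontal axis) for each of the 9 genes in WT and AcPb-/- mice, 3 SD against 3 control libraries each, with 95% intervals from limma and filled points where the adjusted p was under 0.05. The intervals of both genotypes overlap for every gene, Plin4 lies farthest to the right (2.92 and 2.77), and only Sgk1 in WT is open.

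Without SD, none of the 9 genes differed between CTL-AcPbKO and CTL-WT past the threshold, where 0.0197% of the 20273 genes tested did. Cdkn1a came closest. In the scaling of that comparison its 3 CTL-AcPbKO values were 433.7 to 471.4 normalized counts and its 3 CTL-WT values 531.6 to 746, so the groups did not overlap, as for 14.4% of all genes, 7.04% in that direction. The difference was -0.47 (SE 0.12, unadjusted p = 0.00274, adjusted p = 0.354). DESeq2 on the recovered reads put it past the threshold at -0.48 (adjusted p = 0.043), and the adjusted p ranged from 0.043 to 0.847 over all alternatives. The other 8 genes overlapped between the control groups, with differences from -0.32 for Tsc22d3 to 0.091 for Zbtb16. After SD, 0.0145% of 20621 genes differed between SD-AcPbKO and SD-WT, again none of the 9. Their differences ran from -0.26 for Cdkn1a (adjusted p = 0.892) to 0.22 for Sgk1 (adjusted p = 0.90), and all 9 overlapped between the groups, where 11.4% of all genes did not. This comparison shares its SD libraries with the comparisons of SD and control mice, and the values are given side by side without being compared.

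Levels of different genes can be set side by side only per length of exon, in normalized reads per kb. On that scale Tsc22d3 was the highest of the 9 in all 4 groups, at 703 ± 118 (SD, n = 3) in CTL-WT and 1146 ± 88.5 in SD-WT. Plin4 was the lowest in all 4, at 18.6 ± 7.61 in CTL-WT and 139 ± 44.8 in SD-WT. In CTL-WT the order from high to low was Tsc22d3, Sgk1, Zbtb16, Errfi1, Cdkn1a, Sult1a1, Fkbp5, Hif3a and Plin4. Of these neighbours Tsc22d3 and Sgk1, Zbtb16 and Errfi1, and Cdkn1a and Sult1a1 overlapped in range, and the other pairs did not. In SD-WT Zbtb16 stood in place 2, and Sgk1, Sult1a1 and Cdkn1a followed it with overlapping ranges. Sult1a1 stood in place 4 in SD-WT (685 ± 74.0) and in place 6 in CTL-WT (239 ± 42.5), and Hif3a and Plin4, whose ranges were apart in CTL-WT, overlapped in SD-WT.

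**Figure D3:**
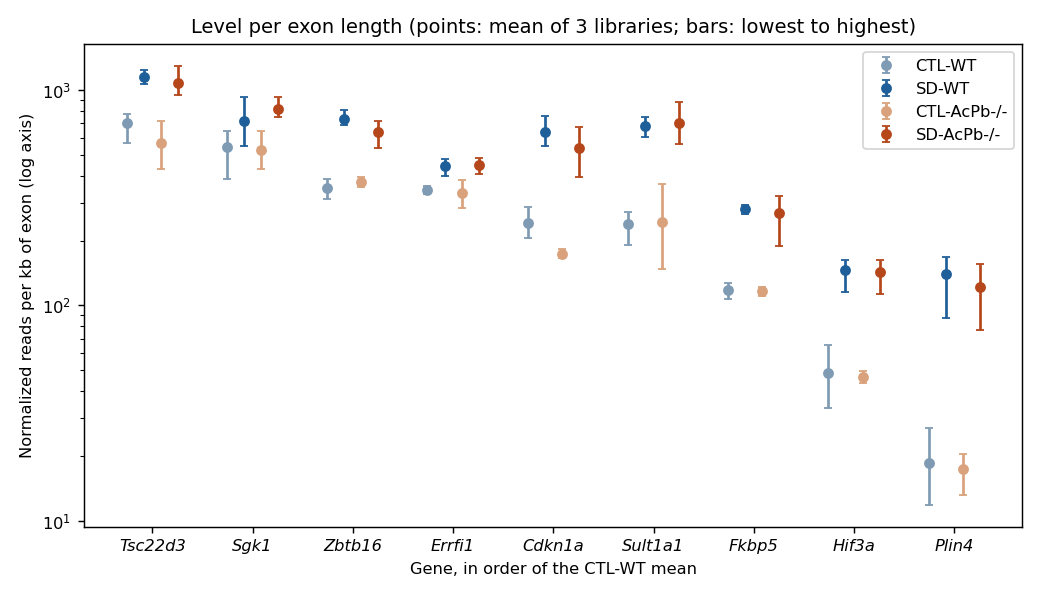
Normalized reads per kb of exon (vertical axis, log scale) of the 9 genes in the 4 groups, ordered by the CTL-WT mean, with points for the mean of 3 libraries and bars from the lowest to the highest. Tsc22d3 is highest and Plin4 lowest in each group, and the gap between Hif3a and Plin4 in controls is closed after SD.

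Within groups the correlations between pairs of the 9 genes ran from -0.30 to 0.946, and most were above 0. With 3 libraries per group these values are imprecise, and differences between them were not tested. After the group means were taken out, Plin4 and Hif3a correlated at r = 0.946 over the 12 libraries, Tsc22d3 and Sult1a1 at 0.926, and Sgk1 and Tsc22d3 at 0.826. Zbtb16 was near 0 with Hif3a (0.049) and Tsc22d3 (-0.027), and Cdkn1a was at -0.30 with Sgk1. These are descriptions over libraries that share depth, scaling and dissection. Taking out group means also leaves in the split of the controls by Xist reads. The log2 difference by Xist reads was 0.70 for Plin4 and Sult1a1, 0.55 for Sgk1, 0.51 for Tsc22d3 and 0.44 for Hif3a. It was -0.085 for Zbtb16 and -0.16 for Cdkn1a. The part of that split in these correlations was not tested. Other genes were ranked over the 12 libraries by likeness to the mean standardized level of the 9. The 12465 ranked had a mean normalized count of at least 100, without predicted genes, accession-like symbols and the sex-linked checks. Most like it were Rin2 (r = 0.995), Srfbp1 (0.991), Eif4e2 (0.990), Psmd8 (0.989) and Hnrnpf (0.989). These r values include the step from control to SD, which was not taken out. The rise of these genes was smaller than that of most of the 9, from 0.22 for Psmd8 to 0.84 for Rin2 in WT mice.

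Since Xist reads separated the controls and the SD libraries were all on the side without them, the 9 genes were also read within that split. In CTL-WT the library without Xist reads was the lowest of the 3 for 6 of 9 genes, and in CTL-AcPbKO for 8 of 9. The mean standardized level of the 9 genes was -1.10 and -1.32 in these 2 libraries, and -0.60 to -0.82 in the 4 controls with Xist reads. In the fit of 12 libraries with a term for Xist reads, 7 of the 9 genes were higher with Xist, up to 0.70 for Plin4 and Sult1a1 and 0.51 for Tsc22d3. None of them passed the threshold for that term (adjusted p from 0.119 to 0.987), where 0.4% of all genes did. Its unadjusted limma p was 0.00125 for Tsc22d3, 0.0047 for Sult1a1 and 0.0069 for Sgk1. It was 0.038 for Hif3a, 0.039 for Plin4 and 0.044 for Errfi1, and 0.39 to 0.86 for the other genes. With that term all 9 genes rose after SD in both genotypes, against 10.6% of all genes higher in WT and 13.1% in AcPb-/- mice. Sgk1 in WT came to 0.76 (SE 0.20, adjusted p = 0.0183). The term was estimated from the controls alone and taken as equal in both genotypes. Sgk1 was lowest in CTL-WT replicate 1, the CTL-WT library without Xist reads. Without that library, the fit without the term gave 0.16 for Sgk1 in WT. In the 8 libraries without Xist reads, with 1 control in each genotype whose spread was assumed to be that of the SD groups, Plin4 came to 3.48 in WT and 3.14 in AcPb-/- mice. There 5 of the 9 genes passed in WT, against 2.02% of all genes higher, and 6 in AcPb-/- mice, against 5.42%. The genes that did not pass in WT mice were Fkbp5 (1.21), Sgk1 (0.85), Errfi1 (0.43) and Cdkn1a (1.14). In AcPb-/- mice they were Fkbp5 (1.25), Sgk1 (0.91) and Zbtb16 (0.68). Sex, Xist and the other ways in which these control mice may have differed cannot be told apart.

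**Figure D4:**
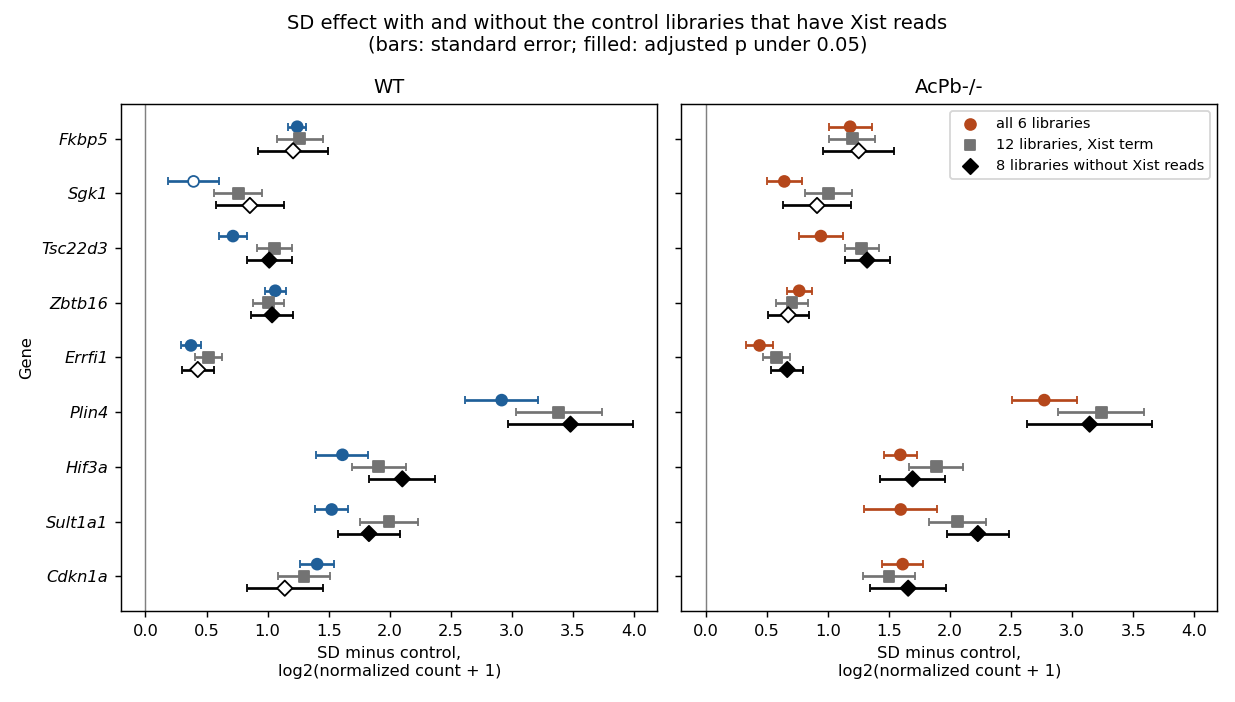
Difference after SD (horizontal axis, log2(normalized count + 1)) of the 9 genes in WT and AcPb-/- mice in the fit of the 6 libraries of the genotype (circles), in all 12 libraries with a term for Xist reads (squares) and in the 8 libraries without Xist reads (diamonds), with standard errors and filled symbols where the adjusted p was under 0.05. All values lie above 0, and those of Sgk1, Tsc22d3, Errfi1, Plin4, Hif3a and Sult1a1 are larger once the controls with Xist reads are set apart.

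Receptors, and the enzymes that make or remove their hormone, were read from the same fits. Of 10 genes of receptors and steroid handling, 0 rose and 2 fell in WT mice, with a median of -0.21. In AcPb-/- mice 1 rose and 1 fell, with a median of -0.089. Calls this few among 10 genes do not set the list apart. Beside this and each list below, 13.2% of all genes rose and 12.2% fell in WT mice. For AcPb-/- mice these shares were 14.1% and 13.3%. Nr3c1, the glucocorticoid receptor, had 6822 ± 511 normalized counts (SD, n = 3) in CTL-WT and 6031 ± 345 in SD-WT, a difference of -0.18 (SE 0.070, adjusted p = 0.093). The AcPb-/- mice also gave -0.18 (SE 0.073, adjusted p = 0.105). Nr3c2, the mineralocorticoid receptor, came to -0.11 in WT (adjusted p = 0.383) and -0.084 in AcPb-/- mice (adjusted p = 0.499). Hsd11b1, which regenerates active hormone, came to 0.057 (adjusted p = 0.721) and -0.18 (adjusted p = 0.264), and Hsd11b2, which inactivates it, was near the limit of detection at 3.01 to 6.51 normalized counts on average per group. The genes that fell in WT were Crhr1, the receptor of corticotropin-releasing hormone, by -0.29 (adjusted p = 0.00905), and H6pd, which supplies Hsd11b1 with its cofactor, by -0.35 (adjusted p = 0.0216). Crhr1 also fell in AcPb-/- mice (-0.48, adjusted p = 0.00835), where Crhbp, the binding protein of the same hormone, rose by 0.37 (adjusted p = 0.0367).

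Of 18 chaperones that hold the receptor and coregulators that act with it, 12 rose in WT mice and 13 in AcPb-/- mice, and 0 fell in either, with medians of 0.31 in both. Hspa8, the constitutive HSP70, went from 68260 ± 6373 to 121100 ± 3509 normalized counts in WT (0.83, SE 0.089, adjusted p = 0.000338) and by 0.98 in AcPb-/- mice (adjusted p = 0.00061). Stip1, which links HSP70 to HSP90, rose by 0.69 in WT (adjusted p = 0.000253) and 0.87 in AcPb-/- mice (adjusted p = 0.000444). Hsp90aa1, the inducible HSP90, rose by 0.54 in WT and 0.72 in AcPb-/- mice. The smallest rises past the threshold in WT were those of Fkbp4 (0.18, adjusted p = 0.0446), the co-chaperone that competes with the Fkbp5 product for HSP90, and Ncor1 (0.29, adjusted p = 0.0224). The rise of Fkbp4 was thus a small part of that of Fkbp5, which was 1.24 in WT.

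Of 26 further genes that glucocorticoids are known to induce in some tissue, 13 rose and 3 fell in WT mice, and 12 rose and 3 fell in AcPb-/- mice, with medians of 0.37 in both. Map3k6, a kinase of the stress-activated pathway, rose by 1.13 in WT (SE 0.12, adjusted p = 0.000338) and 1.10 in AcPb-/- mice. Fam107a, an actin-bundling protein, went from 23100 ± 455 to 47460 ± 5734 normalized counts in WT (1.03, SE 0.089, adjusted p = 0.000168) and rose by 1.14 in AcPb-/- mice. Bcl6, a transcriptional repressor, rose by 0.78 and 0.71, and Nedd9, a focal adhesion scaffold, by 0.78 and 1.12. The 3 genes that fell were the same in both genotypes. Cebpb, a transcription factor of the acute phase response, fell from 169.5 ± 17.2 to 78.8 ± 6.77 normalized counts in WT (-1.09, adjusted p = 0.00112) and by 1.07 on the log2 scale in AcPb-/- mice (adjusted p = 0.00177). Cdkn1c, which encodes p57, a relative of the Cdkn1a product, fell by 0.71 in WT and 0.66 in AcPb-/- mice. Ddit4, an inhibitor of mTORC1, fell by 0.36 and 0.45. Per1, Dusp1 and Nfkbia, hormone targets that neuronal activity or inflammation also induce, passed in neither genotype.

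**Figure D5:**
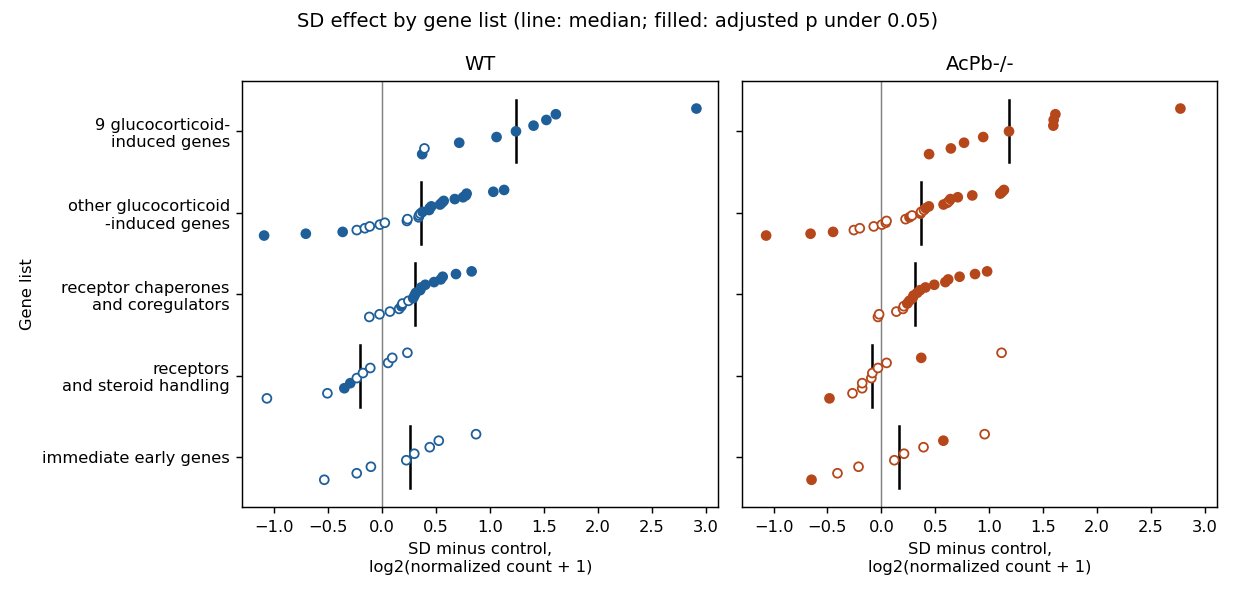
Difference after SD (horizontal axis, log2(normalized count + 1)) of each gene in 5 lists, in WT and AcPb-/- mice, with a line at the median of each list and filled points where the adjusted p was under 0.05. The 9 genes have medians of 1.24 and 1.18, the other glucocorticoid-induced genes 0.37 in both, and 3 of the latter are filled points to the left of 0, with Cebpb lowest of that list.

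Immediate early genes, which neuronal activity induces within minutes, are given as a contrast list from the same libraries. None of 8 passed the threshold in WT mice (median 0.26), and in AcPb-/- mice Fosb rose by 0.57 (adjusted p = 0.0373) and Junb fell by 0.65 (adjusted p = 0.0351). Their summed level ranged from 24600 to 66760 normalized counts over the 3 CTL-WT libraries and from 58270 to 63940 in SD-WT, so in WT mice the controls spread far wider than the SD libraries.

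Markers of the cell types that carry the receptor were read beside the 9 genes. Of 10 endothelial markers 3 rose and 2 fell in each genotype, and their sum was 13810 to 15290 normalized counts in CTL-WT, 14740 to 17710 in SD-WT, 13750 to 15470 in CTL-AcPbKO and 13830 to 16710 in SD-AcPbKO. Of 8 astrocyte markers 0 rose, and 2 fell in WT and 1 in AcPb-/- mice. Their sums were 263000 to 304200 in CTL-WT and 269800 to 303400 in SD-WT, and 257200 to 298300 against 260600 to 277500 in AcPb-/- mice. Of 8 oligodendrocyte markers 0 rose, and 5 fell in WT and 2 in AcPb-/- mice, with sums of 108800 to 138700 and 87770 to 121100 in WT and of 54880 to 126300 and 70960 to 106300 in AcPb-/- mice. None of these sums separated SD from control libraries. Of 6 microglia markers 0 rose, and 1 fell in WT and 3 in AcPb-/- mice. Their sums were 14260 to 15600 in CTL-WT and 13010 to 14070 in SD-WT, and 14100 to 14970 in CTL-AcPbKO and 10210 to 12370 in SD-AcPbKO, so SD and control libraries did not overlap in either genotype. Of 6 meningeal fibroblast markers 0 rose, and 2 fell in WT and 1 in AcPb-/- mice. Their sums were apart in WT mice, at 6874 to 6996 in controls and 5672 to 6523 after SD, and overlapped in AcPb-/- mice, at 7180 to 9055 and 7122 to 7771. Cortical excitatory neuron markers, which check the tissue, summed to 75230 to 102100 normalized counts over all libraries. Their sums were 87340 to 95490 in CTL-WT and 75230 to 87280 in SD-WT, and 97560 to 102100 in CTL-AcPbKO and 85630 to 90250 in SD-AcPbKO, so SD libraries lay lower in both genotypes, without overlap. Of these 6 markers 1 rose in each genotype, and 2 fell in WT and 1 in AcPb-/- mice. Striatal markers summed to 10150 to 18230 over all libraries, with groups that overlapped in both genotypes. Of 5 red blood cell markers only Alas2 was read. The part of these cell types in the rise of the 9 genes was not tested.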

How the data were processed

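Per the labels and methods, the authors aligned reads to mm10 with HISAT2 (version 2.2.1) and counted them per gene (featureCounts in the submitters' processing notes, HTSeq in the methods). The deposited per-library values are a signal, read counts over DESeq2 size factors, in 5 tables of 24421 genes. Undoing the size factors gave whole reads for 100.0% of 732630 values (within 0.01). The authors' fold change, statistic and p-value columns, and their mean column, hold their own comparisons and were not used. Of 16 samples, 12 have a column and the other 4 were not analysed here.

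Of the planned tests, edgeR for counts or limma for normalized values, the second fits this unit. A limma model (R 4.3.3, limma 3.58.1) with a variance trend was fitted to log2(value + 1), after dropping genes without a read in any library of the fit, per table, and over all 12 libraries (size factors recomputed) for the interaction. The table of SD-AcPbKO against CTL-WT mice, which differ in both factors, was read only to compare counts between tables. P-values were Benjamini-Hochberg adjusted over all genes tested. Alternatives were pseudocounts of 0.1 and 10, a mean of at least 10, no filter, a threshold of 0.01, TMM scaling, median centring, recovered reads in edgeR 4.0.16 and in DESeq2 1.42.0, one fit of all libraries with and without an Xist term, the 8 libraries without Xist reads, thinning, a replicate block and each library left out.

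The 9 genes and all lists were chosen with earlier results of these data known. Of each list all genes were counted. Named were Nr3c1, Nr3c2, Hsd11b1 and Hsd11b2, and per list up to 4 genes with the largest and 2 with the smallest difference past the threshold in WT, with Xist, Y-linked genes and Il1rap as checks and the 5 genes closest in pattern to the 9. Crhbp, Fosb, Junb, Per1, Dusp1, Nfkbia, Alas2, Acnat2 and Gm35041 were named after their values were seen, as were Ddit4 and the windows of Fam107a. The values of 1 gene that this rule names are not reported here. The fits were tested on simulated data. Recovery and figures used Python 3.11.15.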

Additional observations from a re-analysis of the deposited data

How the results depend on the processing

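The rise after SD of the 9 genes kept its direction in every alternative run, 180 of 180 values in WT and 180 of 180 in AcPb-/- mice. These values include 3 alternatives that cannot change a difference and repeat the main one. They are the threshold of 0.01, no filter and the mean of at least 10. The count of the 9 past the threshold in WT, 8, was 9 with the Xist term, 6 with no filter, 5 in the 8 libraries without Xist reads and 0 with a replicate block, and 8 without each library in turn. In AcPb-/- mice, 9, it was 7 at an adjusted p under 0.01, 6 in the 8 libraries, 5 with no filter, 0 with the block, and 7 to 9 with each library left out. Numbers are shared by 2 pairs of libraries in each SD comparison, with deviations correlated at 0.109 and -0.0867 in WT and -0.147 and -0.0115 in AcPb-/- mice, at 0.209 and 0.217 between the SD groups and at -0.466 for the 1 pair of controls. Pairs with different numbers ran from -0.148 to 0.132 in WT and from -0.368 to 0.302 in AcPb-/- mice. Between the SD groups they ran from -0.279 to 0.094, and between controls from -0.436 to 0.509. The pairs that share a number were thus the highest between the SD groups and the lowest between controls. With fewer than 3 such pairs in each comparison and no label that ties the numbers to a litter, batch or day, the numbers were treated as names only. The block leaves few degrees of freedom (lowest adjusted p of the 9 genes 0.092 in WT and 0.188 in AcPb-/- mice), and it could not be fitted to the control comparison, where 1 number is shared.

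Counts of all genes moved as follows. In WT, 5186 became 2937 with no filter, 2360 at an adjusted p under 0.01, 680 in the 8 libraries, 0 with the block, and 2699 to 6222 with each library left out (2699 without CTL-WT replicate 2, 2836 and 2941 without SD-WT replicates 2 and 1). In AcPb-/- mice, 5633 became 2656 at an adjusted p under 0.01, 2080 in the 8 libraries, 0 with the block, and 3393 to 5412 with each library left out (3393 and 3575 without SD-AcPbKO replicates 2 and 4, 3417 without CTL-AcPbKO replicate 4). Between controls, 4 became 0 with a pseudocount of 10, at an adjusted p under 0.01, in the 8 libraries and after thinning, 15 with no filter, 104 with DESeq2 (1 of the 9 genes, Cdkn1a), 8 with edgeR and in the fit of 12 libraries, 7 with the Xist term, and 0 to 168 with each library left out (168 without CTL-AcPbKO replicate 3, 2 without replicate 5 and 0 without each other library). Between SD groups, 3 became 16 with no filter, 1 at an adjusted p under 0.01, 10 with median centring, 99 with DESeq2, 9 with edgeR, 5 in the fit of 12 libraries, 13 with the Xist term, 0 with the block and in the 8 libraries, and 0 to 4 with each library left out (0 without SD-WT replicate 1, 1 without SD-AcPbKO replicate 3). For the interaction, 0 became 2 with no filter, 1 with DESeq2, and 0 to 9 with each library left out, 9 without CTL-AcPbKO replicate 3.

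Differences between the SD effects near 0 changed sign. That of Hif3a (-0.021) was 0.028 with DESeq2 and 0.027 with edgeR, and -0.26 to 0.22 with each library left out. That of Fkbp5 (-0.063) was 0.045 in the 8 libraries and -0.21 to 0.18 with each library left out. With each library left out Plin4 (-0.15) ran from -0.45 to 0.16, Sult1a1 (0.070) from -0.25 to 0.41 and Errfi1 (0.066) from -0.049 to 0.17. The causes were not tested. The 8-library fit and the block rest on fewer degrees of freedom.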

Other observations

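The full glucocorticoid response element was found in 2 windows besides that of Sgk1. Acnat2, an acyl-CoA transferase gene, differed after SD by 0.19 in WT (adjusted p = 0.802) and 0.57 in AcPb-/- mice (adjusted p = 0.515), so neither passed the threshold. The other was of Gm35041, a predicted gene that is not listed in the tables.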
